A study of Mus musculus with 36 samples.

Results

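Genipin given after bacterial lipopolysaccharide (LPS) was compared between liver and kidney of the same study. For each gene the quantity was a difference of differences: the change from LPS to LPS plus genipin in liver, minus the same change in kidney, on the log2 intensity scale. A positive value means that the level with genipin was higher, or less lowered, in liver than in kidney, relative to each tissue's own LPS arrays. The genes were those whose same probe was measured in both tissues, 7628 of 12394 genes with a value in any tissue of the series. The arrays were 12 of 36, 3 in each of 4 groups.

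The mice were FVB females, 6 to 8 weeks old, that carried a luciferase transgene. The LPS groups received LPS at 4 mg/kg into the peritoneal cavity, the LPS plus genipin groups received genipin as well 10 min later, and tissue was taken 4 h later. Mock mice were untreated, and 3 arrays per tissue of these give the level without LPS. The series comprised 25 mice in 5 groups of 5, and its genipin groups received 1, 10 or 100 mg/kg; which dose the mice on the arrays had is not stated in the labels. It is also unstated whether a group's 3 arrays are 3 mice. The p-values therefore reflect only array-to-array spread, which may be technical. No genipin group without LPS was analysed here.

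Genipin is an iridoid from gardenia fruit. LPS is sensed by Toll-like receptor 4, which activates NF-kB and, through type I interferon, a set of interferon-stimulated genes. Reactive compounds can release the transcription factor NRF2 from its inhibitor Keap1 and so raise glutathione and antioxidant genes, while misfolded protein releases heat-shock factors that raise chaperone genes.

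Kidney and liver were normalized separately, so only changes within a tissue were compared, never levels between tissues. Arrays of the same group correlated at 0.986 to 0.996. The LPS liver arrays were the most variable, with a median standard deviation between arrays of 0.126 on the log2 scale against 0.0761 to 0.0866 in the other 5 groups. Albumin (Alb), the main secreted protein of hepatocytes, was saturated on every liver array. In kidney the 2 proximal tubule markers tested summed to intensities of 84171 to 116442 over the mock, LPS and LPS plus genipin arrays. Neither was at the floor, but Gatm was saturated on all mock kidney arrays, so the upper end may be understated. A gene is called at a limit where all 3 arrays of an LPS or LPS plus genipin group lay at the floor (intensity 263, log2 8.04) or at or above 60000, near the scanner limit. That applied to 587 of the 7628 genes, of which 266 passed the test.

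Genipin shifted transcripts in both organs, and for a large share of genes it did so unequally. In the limma fit across all genes, the difference between the tissues passed an adjusted p of 0.05 for 2916 genes (38.2% of those tested). The effect was above kidney in liver for 1510 (19.8%) and below it for 1406 (18.4%), and 399 (5.23%) differed at least 2-fold. Within the tissues, LPS plus genipin differed from LPS for 4592 genes in liver (60.2%; 2588 higher, 33.9%, and 2004 lower, 26.3%) and 3810 in kidney (49.9%; 2209 higher, 29.0%, and 1601 lower, 21.0%). The standard deviation of the effect across genes was 0.57 in liver and 0.45 in kidney, and the median standard error of the difference was 0.12. Across genes the effects in the 2 tissues, which share no arrays, correlated with a Pearson r of 0.527 and a Spearman rho of 0.508. These are descriptions, since genes are not independent replicates.

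Among the 2916 genes, 382 went in opposite directions and passed in both tissues, 187 of them higher in liver and lower in kidney and 195 lower in liver and higher in kidney. A further 723 passed in both tissues in 1 direction but with unequal size, larger in liver for 509 and larger in kidney for 214. Liver passed and kidney did not for 609 genes that rose and 514 that fell, kidney passed and liver did not for 399 that rose and 235 that fell, and for 54 neither tissue passed alone. Outside these, 847 genes rose and 699 fell in both tissues while the difference missed the test. The array-to-array changes of the 2 tissues did not overlap at all for 2633 genes (34.5%).

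**Figure D1:**
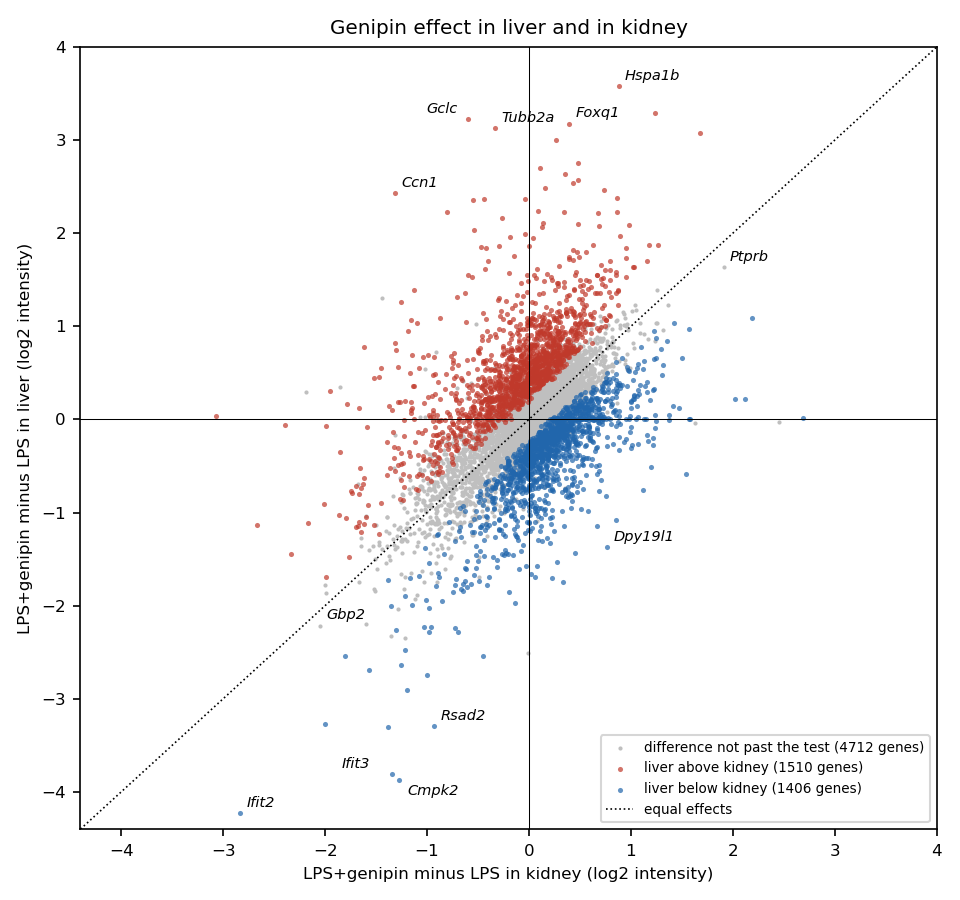
Change from LPS to LPS plus genipin in kidney (horizontal axis) and liver (vertical axis), log2 intensity, 1 point per gene for 7628 genes, genes at a limit included. Red points (1510) had the larger value in liver and blue points (1406) the smaller at an adjusted p of 0.05; Gclc and Ccn1 lie farthest above the dotted line of equal effects, and Cmpk2 and Ifit3 among the farthest below it.

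Genes of glutathione synthesis and antioxidant defence rose mainly in liver. Of 32 NRF2 target and antioxidant genes tested, 21 had a larger effect in liver and 1, Gsta4 (-0.38), a smaller one, together 68.8% of the list against 38.2% of all genes. The median difference was 0.60, against 0.02 over all genes. Within the tissues, 25 rose and none fell in liver (median 0.69), while 14 rose and 2 fell in kidney (median 0.16); 7 of the 32 were at a limit.

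Gclc, which encodes the catalytic subunit of the enzyme for the first step of glutathione synthesis, had the largest difference of all 7628 genes. In liver its log2 intensity was 10.75, 10.20 and 9.93 on the LPS arrays and 13.40, 13.27 and 13.88 with genipin, where mock arrays read 12.40, 12.37 and 12.57. In kidney it was 13.17, 13.14 and 13.03 with LPS and 12.43, 12.47 and 12.65 with genipin, where mock arrays read 12.57, 12.02 and 12.7. LPS alone had lowered Gclc by 2.15 in liver and raised it by 0.69 in kidney. The LPS and LPS plus genipin groups did not overlap in either tissue, and the effects had opposite directions. Genipin raised Gclc by 3.22 ± 0.20 in liver (9.34-fold) and it fell by 0.60 ± 0.20 in kidney, to about the mock level. The difference was 3.82 ± 0.28 (SE, 3 arrays per group, limma adjusted p = 4.18e-08).

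Srxn1, the sulfiredoxin that reactivates oxidised peroxiredoxins, rose in both organs. Its liver values were 11.02, 10.93 and 10.72 with LPS and 14.16, 14.19 and 14.19 with genipin; its kidney values were 12.68, 12.58 and 12.65, then 13.94, 13.87 and 13.81. The rise was 3.29 in liver and 1.24 in kidney, a difference of 2.05 ± 0.10 (adjusted p = 2.52e-10). Hmox1, heme oxygenase, rose by 1.95 in liver, while its kidney effect of 0.04 missed the test (difference 1.92). Ugdh, which makes the sugar donor of glucuronidation, differed by 2.28 (liver 2.63, kidney 0.35). Gclm, the modifier subunit of the Gclc enzyme, differed by 1.25, and Nfe2l2, which encodes NRF2 itself, by 1.06.

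A simplified antioxidant response element, TGANNNNGC, was searched on both strands of RefSeq promoter windows (GRCm38.p6, 300 bases around the annotated start). It was present in 16 of the 26 listed genes with a window (61.5%), against 48.3% of 6253 tested genes with one. Here and below, a gene with several windows counted where any of them held a match. The letters are short and common, and a match is a description, not a site. The window of Srxn1, chr2:152105274-152105573 (plus strand), is shown for its 4 matches, in capitals.
Srxn1: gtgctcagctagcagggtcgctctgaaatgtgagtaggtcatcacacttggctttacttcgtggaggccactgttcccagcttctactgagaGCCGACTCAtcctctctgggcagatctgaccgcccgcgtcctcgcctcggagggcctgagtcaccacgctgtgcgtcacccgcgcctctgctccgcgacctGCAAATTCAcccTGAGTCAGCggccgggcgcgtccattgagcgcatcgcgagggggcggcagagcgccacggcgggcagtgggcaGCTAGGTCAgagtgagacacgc

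Relative to LPS alone, chaperone genes also rose mainly in liver. Of 17 heat-shock chaperone genes tested, 10 (58.8%, against 38.2% of all genes) had a larger effect in liver and none a smaller one, with a median difference of 0.50 against 0.02 over all genes. In liver 15 rose and none fell, and in kidney 7 rose and 2 fell. Of the 17, 1 was at a limit. Hspa1b, the stress-inducible Hsp70 chaperone, read 9.05, 9.02 and 8.72 in liver with LPS and 12.49, 12.40 and 12.64 with genipin. In kidney it read 12.01, 12.02 and 11.98, then 12.88, 12.81 and 12.97. All genipin arrays lay above all LPS arrays in both tissues, by 3.58 in liver and 0.88 in kidney, a difference of 2.70 ± 0.12 (adjusted p = 1.01e-10). Dnajb1, a co-chaperone of that family, differed by 1.35 (liver 1.65, kidney 0.30). LPS alone had lowered both genes against mock, Hspa1b by 2.73 in liver and 1.91 in kidney and Dnajb1 by 1.62 and 0.62. With genipin the Hspa1b mean was above mock in liver (12.51 against 11.66) and below it in kidney (12.89 against 13.92). The Dnajb1 mean was close to mock in liver (12.6 against 12.57) and below it in kidney (12.97 against 13.3). Zfand2a, a zinc-finger protein linked to the proteasome, rose by 3.00 in liver and 0.26 in kidney.

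The heat-shock element core GAANNTTC occurred in 5 of the 12 chaperone genes with a window (41.7%), against 6.6% of all tested genes with one. The 5 were Bag3, Chordc1, Fkbp4, Hspa1b and Hspb8, counted whatever their effect. Fkbp4 had the lowest effect of the list in both tissues (liver -0.10, kidney -0.35). The Hspa1b window, chr17:34959189-34959488 (minus strand), holds 1 match, in capitals, and is shown because this gene had the largest rise in liver of the 7628.
Hspa1b: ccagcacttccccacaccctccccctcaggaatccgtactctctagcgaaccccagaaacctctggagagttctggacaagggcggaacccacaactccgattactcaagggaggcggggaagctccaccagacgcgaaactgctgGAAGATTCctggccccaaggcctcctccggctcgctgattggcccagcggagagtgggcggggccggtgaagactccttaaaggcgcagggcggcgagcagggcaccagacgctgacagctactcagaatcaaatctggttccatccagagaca

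Proteasome subunits moved by smaller amounts in the same direction: 12 of 33 had a larger effect in liver and none a smaller one (median difference 0.22). This share, 36.4%, is near the 38.2% of all genes. Of 7 tubulin genes, 4 (57.1%) had a larger effect in liver and none a smaller one, with 1 of the 7 at a limit. Tubb2a, a beta-tubulin, read 10.99, 11.03 and 10.96 in liver with LPS and 14.14, 14.09 and 14.14 with genipin, and in kidney 13.76, 13.37 and 13.38, then 13.25, 13.21 and 13.05. It was raised in liver and slightly lowered in kidney, with no overlap, for a difference of 3.46 ± 0.14 (adjusted p = 3.64e-11). Tuba1c, an alpha-tubulin, differed by 2.26 (liver 1.84, kidney -0.42).

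**Figure D2:**
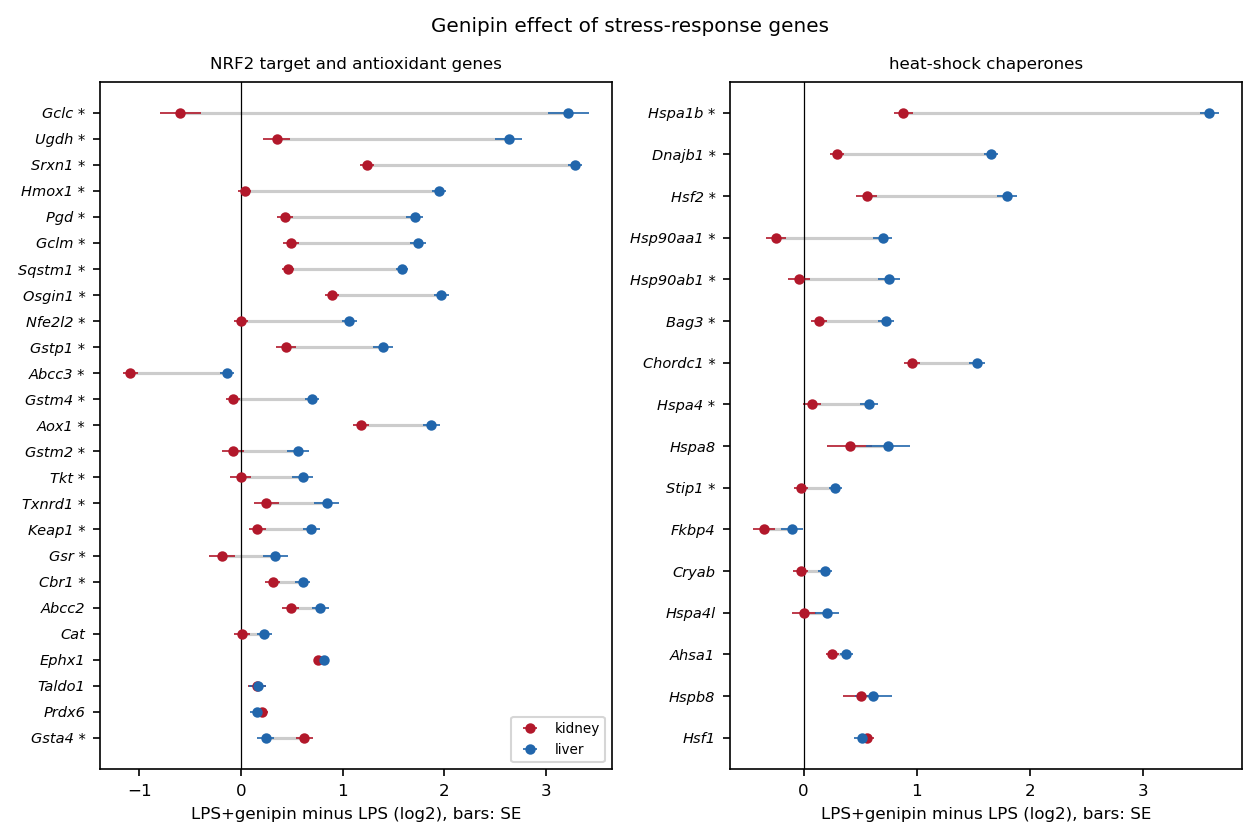
Change from LPS to LPS plus genipin (log2 intensity, bars SE, 3 arrays per group) in kidney (red) and liver (blue) for NRF2 target and antioxidant genes and heat-shock chaperones, genes at a limit left out, ordered by the difference. An asterisk marks an adjusted p under 0.05 for the difference; Gclc (3.82) and Hspa1b (2.70) top the panels.

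Immediate early genes answer a stimulus without new protein synthesis. Of 26 tested, 15 had a larger effect in liver and 2 a smaller one, together 65.4% of the list against 38.2% of all genes, with a median difference of 0.49. Opposite directions that passed in both tissues and in the difference occurred in 9 of the 26 (34.6%), against 5.01% of all genes. In liver 13 rose and 8 fell, and in kidney 5 rose and 16 fell. Ccn1, a secreted matrix-associated protein, read 8.35, 8.18 and 8.04 in liver with LPS and 10.49, 10.51 and 10.85 with genipin; kidney read 12.43, 12.38 and 12.38, then 11.02, 11.08 and 11.14. The LPS and LPS plus genipin groups were fully separated in both tissues, up by 2.43 in liver, while in kidney Ccn1 fell by 1.32. Of the LPS liver arrays 1 lay at the floor, so the liver rise may be understated. LPS alone had raised Ccn1 by 1.815 in kidney and lowered it by 0.417 in liver. Its kidney mean with genipin was 11.08, between the mock mean of 10.58 and the LPS mean of 12.4. The difference was 3.74 ± 0.13 (adjusted p = 9.49e-12).

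The zinc-finger transcription factors Klf6 and Egr1 behaved likewise. Klf6 rose by 0.78 in liver and fell by 1.62 in kidney (difference 2.40), and Egr1 rose by 1.06 and fell by 1.16 (difference 2.22). Fos, a subunit of AP-1, rose by 0.46 in liver and fell by 1.47 in kidney. The exceptions were Klf2 (-1.13) and Nr4a1 (-1.58), a nuclear receptor. Nr4a1 read 10.32, 10.28 and 9.98 in liver with LPS and 9.38, 9.26 and 9.48 with genipin, against 12.45, 12.58 and 12.57, then 13.24, 13.17 and 13.47, in kidney. It fell in liver and rose in kidney without overlap. Gadd45g had a difference of -2.50 that missed the test (adjusted p = 0.129); 1 of its LPS plus genipin liver arrays lay at the floor, 8.04, and the others at 13.27 and 13.21.

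NF-kB genes were lowered in kidney and less so in liver. Of 16 NF-kB subunits, feedback and target genes, 10 had a larger, that is less negative or positive, effect in liver and none a smaller one (62.5% of the list, against 38.2% of all genes; median difference 0.54). In kidney 14 fell and 1, Sod2, rose; in liver 8 fell and 2, Icam1 and Rela, rose. Icam1, the adhesion molecule that binds leukocytes, read 13.19, 13.26 and 13.08 in liver with LPS and 13.79, 13.85 and 13.91 with genipin. In kidney it read 15.21, 15.09 and 15.29, then 14.25, 14.24 and 14.31. It rose by 0.67 in liver and fell by 0.93 in kidney, a difference of 1.60 ± 0.09 (adjusted p = 2.14e-09).

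Relb, an NF-kB subunit, fell by 1.34 in kidney, from 11.58, 11.66 and 11.49 to 10.36, 10.15 and 10.18. In liver it read 9.24, 9.30 and 9.21 with LPS and 9.37, 9.40 and 9.29 with genipin, a change of 0.10 that missed the test. The difference was 1.44. Tnfaip3 and Nfkbia, inhibitors of the pathway that NF-kB induces, gave differences of 0.01 and -0.05, which missed the test. Of 15 genes of LPS recognition and Toll-like receptor signalling, 8 had a larger effect in liver and 1, Tlr7 (-0.43), a smaller one (60%, against 38.2% of all genes). The median of their differences was 0.49, although the median effect was lower in liver (-0.33) than in kidney (-0.16). Of the 15, 1 was saturated on all LPS liver arrays and 1 lay at the floor on all LPS plus genipin liver arrays. Ly96, the co-receptor of Toll-like receptor 4, rose by 1.34 in liver, and its kidney effect of 0.10 missed the test.

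Markers of immune cells moved as well. The 7 of 11 monocyte and macrophage markers tested summed to intensities of 60140 to 65790 with LPS and 31789 to 33658 with genipin in kidney, and to 31597 to 35022 and 22294 to 24152 in liver, with none at the floor. The members did not move together: in kidney 4 rose and 3 fell (median 0.27), and in liver 4 rose and 2 fell (median 0.32), with the most negative effect for Plac8 and the most positive for Lyz2 in both. The 2 of 11 neutrophil markers tested summed to 42616 to 48861 with LPS and 30204 to 37582 with genipin in liver, and to 6211 to 8110 and 5923 to 6167 in kidney; both fell in liver and neither passed the test in kidney. Their part in the results on NF-kB and interferon genes was not tested. In whole tissue, fewer cells of a type and less RNA per cell cannot be told apart.

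Interferon-stimulated genes fell in both organs, but different members fell further in each. Of 30 tested, 28 fell and 1 rose in liver and all 30 fell in kidney, with median effects of -1.34 and -1.42. The difference passed for 21 (70.0%, against 38.2% of all genes): 9 fell further in liver and 12 had the larger fall in kidney, 1 of which, Gbp6, rose in liver. The 9 were Cmpk2, Ifit3, Rsad2, Isg15, Usp18, Ifit2, Ifi44, Isg20 and Gbp3. The 12 were Gbp6, Iigp1, Irf1, Igtp, Cd274, Irf9, Irgm2, Psmb8, Oas2, Oas3, Ifi35 and Ifi47. Of the 30, 1 was saturated on all LPS liver arrays, so a liver fall of that gene may be understated.

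Cmpk2, a mitochondrial nucleotide kinase induced by interferon, had the lowest difference among genes not at a limit. In liver it read 14.22, 14.42 and 14.25 with LPS, 10.29, 10.45 and 10.53 with genipin and 9.40, 9.22 and 9.38 in mock. In kidney it read 15.74, 15.84 and 15.88, then 14.48, 14.53 and 14.64, against mock values of 11.57, 11.61 and 11.67. It fell by 3.87 in liver (14.7-fold) and by 1.27 in kidney (2.42-fold), with no overlap of groups, a difference of -2.60 ± 0.11 (adjusted p = 6.33e-11). Its LPS kidney arrays, at intensities of 54890, 58710 and 60310, lay near the scanner limit. The kidney fall may therefore be understated and the difference overstated.

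Ifit3, an antiviral protein induced by interferon, fell in liver from 14.32, 14.31 and 14.34 to 10.45, 10.58 and 10.52, and in kidney from 15.65, 15.61 and 15.42 to 14.27, 14.21 and 14.19. Its difference was -2.46 ± 0.15 (adjusted p = 5.36e-09). Rsad2, the antiviral enzyme viperin, fell by 3.29 in liver and 0.93 in kidney (difference -2.36). LPS kidney intensities were also high for Ifit3 (43890 to 51490) and Rsad2 (50900 to 53980), so their kidney falls may be understated. Isg15, a ubiquitin-like modifier, fell by 3.30 and 1.38 (difference -1.92), and Usp18, which removes that modifier, by 2.90 and 1.19 (difference -1.71).

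The reverse held for Irf1, a transcription factor that interferon gamma induces. It read 12.75, 13.01 and 12.83 in liver with LPS and 12.19, 12.13 and 11.90 with genipin; kidney read 14.52, 14.53 and 14.48, then 12.86, 12.78 and 12.66. It fell by 0.79 in liver and 1.74 in kidney, a difference of 0.95 ± 0.14 (adjusted p = 8.62e-05). Igtp, an immunity-related GTPase, fell by 1.45 and 2.34 (difference 0.89). Gbp6, a guanylate-binding protein, rose by 0.44 in liver and fell by 1.52 in kidney (difference 1.96); with LPS alone it was below mock in liver (-0.60) and above it in kidney (2.09).

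Promoter windows of these genes were searched on both strands for an interferon-stimulated response element, GAAA, NN and GAAA in a row, and a gamma-activated site, TTCNNNGAA. The first was present in 12 of 26 listed genes with a window (46.2%) against 3.44% of tested genes, and the second in 9 of 26 (34.6%) against 8.38%. Among the genes that fell further in liver, 4 of 8 with a window held the first and 2 of 8 the second. Among those with the larger fall in kidney, 3 of 9 held the first and 5 of 9 the second. The 2 motifs overlapped in 8 of 7996 windows. These counts are small and were not tested. Shown are Ifit3, chr19:34583279-34583578 (plus strand), with 2 matches to the first motif, and Isg15, chr4:156200769-156201068 (minus strand), with 3 overlapping ones, for the first set, and Irf1, chr11:53769764-53770063 (plus strand), with 1 match to the second motif, for the other set. Irf1 had 2 windows, and the one with the most matches to the second motif is shown. Capitals mark the matches.
Ifit3: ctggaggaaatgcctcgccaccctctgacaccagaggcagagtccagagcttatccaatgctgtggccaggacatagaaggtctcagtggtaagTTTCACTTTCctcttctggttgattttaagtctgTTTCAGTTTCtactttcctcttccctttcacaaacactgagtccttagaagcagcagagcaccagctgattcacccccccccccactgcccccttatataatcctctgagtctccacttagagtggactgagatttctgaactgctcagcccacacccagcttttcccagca
Isg15: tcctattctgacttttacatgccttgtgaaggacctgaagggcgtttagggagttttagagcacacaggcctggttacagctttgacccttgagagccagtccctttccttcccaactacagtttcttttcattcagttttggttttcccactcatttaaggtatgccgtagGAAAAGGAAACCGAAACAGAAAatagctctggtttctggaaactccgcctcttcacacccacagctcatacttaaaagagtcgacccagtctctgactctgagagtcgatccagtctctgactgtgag
Irf1: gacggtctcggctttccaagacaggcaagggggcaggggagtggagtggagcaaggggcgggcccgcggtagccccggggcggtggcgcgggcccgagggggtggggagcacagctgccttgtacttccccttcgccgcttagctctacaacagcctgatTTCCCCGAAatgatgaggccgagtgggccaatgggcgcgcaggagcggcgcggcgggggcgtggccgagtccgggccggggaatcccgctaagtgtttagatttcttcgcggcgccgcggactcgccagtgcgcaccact

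**Figure D3:**
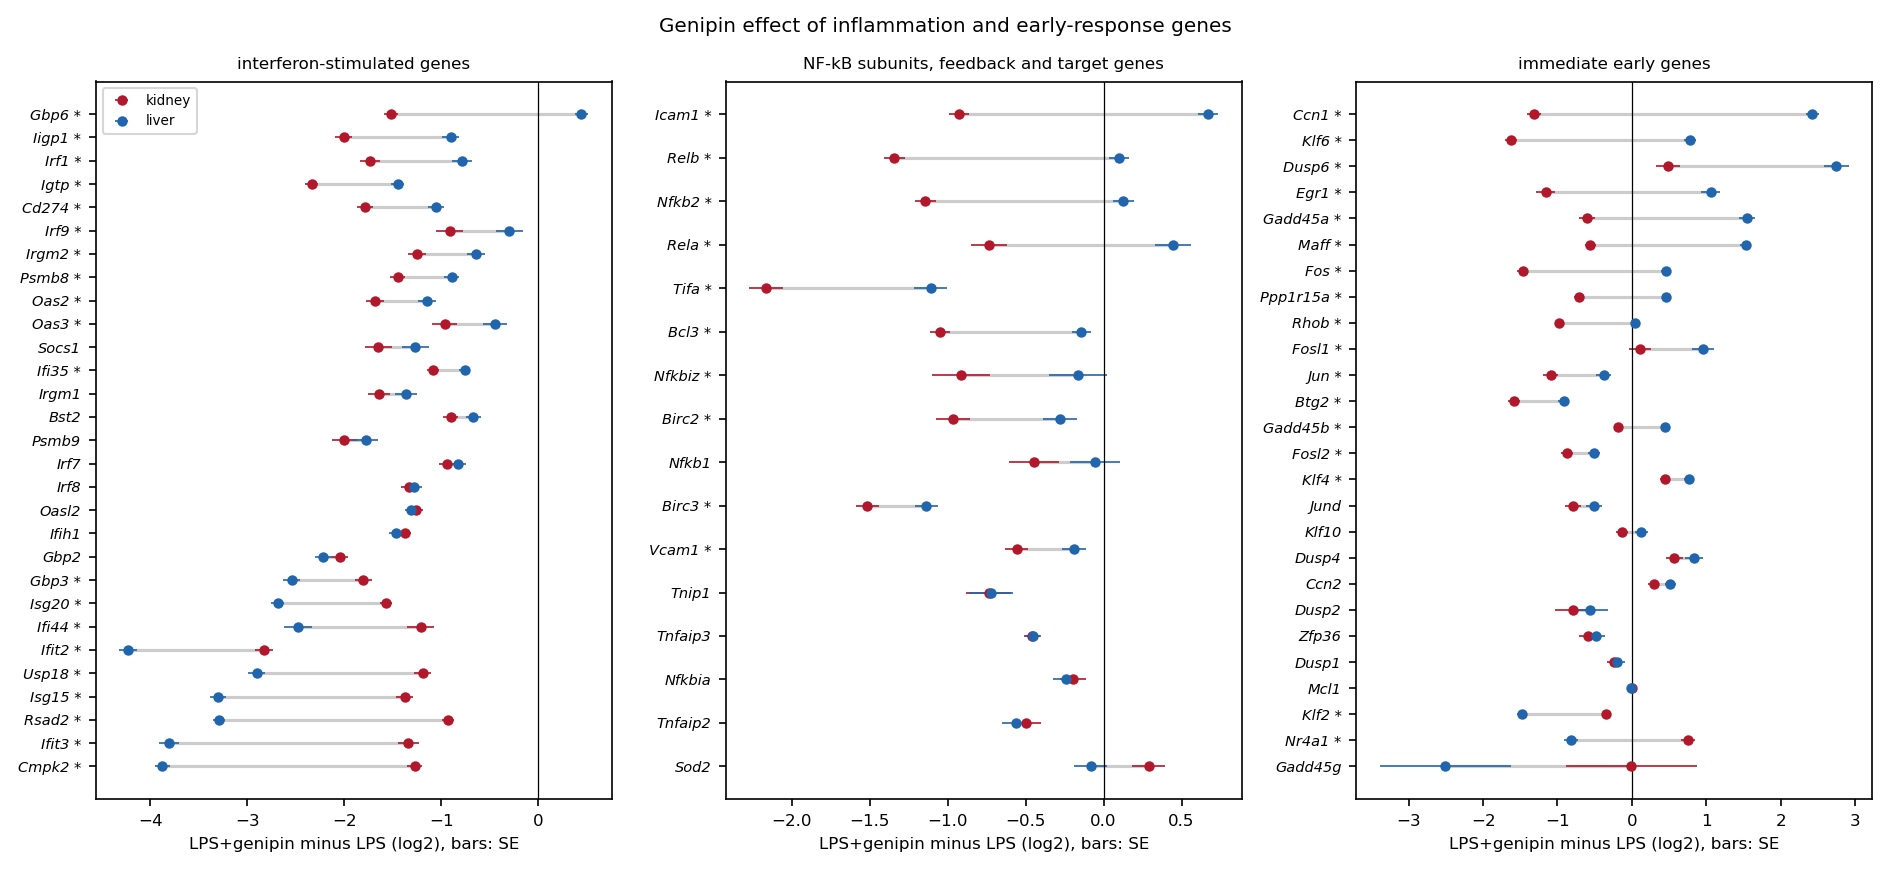
Change from LPS to LPS plus genipin (log2 intensity, bars SE, 3 arrays per group) in kidney (red) and liver (blue) for interferon-stimulated, NF-kB and immediate early genes, genes at a limit left out, ordered by the difference. An asterisk marks an adjusted p under 0.05 for the difference; the interferon panel runs from Gbp6 (1.96) to Cmpk2 (-2.60).

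Secreted mediators gave a mixed picture. Of 11 chemokines, 3 had a larger and 3 a smaller effect in liver, and of 9 cytokines 4 and 3 (54.5% and 77.8%, against 38.2% of all genes). Among the 11 chemokines, 2 were saturated on all LPS liver arrays, so a liver fall of these may be understated. Ccl9 fell by 1.06 in liver and rose by 0.21 in kidney, and Il1b fell by 0.83 in liver and rose by 0.39 in kidney (difference -1.21). Cxcl10, an interferon-induced chemokine, fell by 1.65 in liver and 0.89 in kidney. Il33, an alarmin, fell by 1.71 and 0.72.

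Of 16 acute-phase genes, 11 had a larger effect in liver and 2 a smaller one (81.2%, against 38.2% of all genes), but 11 of the 16 were at a limit, and 9 were saturated on all LPS liver arrays. In kidney 15 fell. Fgb, the fibrinogen beta chain, read 14.05, 14.07 and 14.15 in kidney with LPS and 11.03, 10.87 and 11.16 with genipin, a fall of 3.07. Its liver arrays, at 15.99, 15.87 and 15.97 with LPS and at or above 60000 in intensity with genipin, lay near the scanner limit, so no liver change can be read and the difference between tissues is not given as a fold. Among members not at a limit, Serpina3g, a serine protease inhibitor, fell by 1.77 in liver and 0.56 in kidney, and Il1r1, an interleukin-1 receptor, by 1.36 and 0.52.

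Vascular genes split by member. Of 20, 7 had a larger effect in liver and 9 a smaller one (80%, against 38.2% of all genes), with a median difference of -0.28. Of the 20, 1 was at a limit. Kdr, the main receptor for vascular endothelial growth factor, read 8.16, 8.62 and 8.18 in liver with LPS and 10.45, 10.49 and 10.72 with genipin, against 11.78, 11.73 and 11.90 in mock. In kidney it read 12.37, 12.37 and 12.42, then 12.31, 12.49 and 12.61. The liver groups were separate and the kidney groups overlapped, for a difference of 2.15 ± 0.15 (adjusted p = 3.07e-08). The liver LPS values of Kdr lay near the floor.

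Tek, the angiopoietin receptor, rose in both tissues and more in kidney. It went from 9.66, 9.55 and 9.51 to 11.68, 11.85 and 11.74 in kidney and from 8.07, 8.22 and 8.04 to 8.97, 9.25 and 9.37 in liver, a difference of -1.10 ± 0.12. Its liver LPS values were at or near the floor, so the liver rise may be understated. Ptprb, an endothelial phosphatase that acts on Tek, rose by 1.63 in liver and 1.91 in kidney, and its difference of -0.28 missed the test (adjusted p = 0.0844), although it passed when replicate 1 of the LPS liver arrays was left out (-0.35, adjusted p = 0.0344). F3, tissue factor, rose by 0.83 in liver, from LPS values of 8.43, 8.22 and 8.08 near the floor, and fell by 1.32 in kidney. The 9 of 10 vascular endothelial markers tested summed to 26745 to 27329 with LPS and 31618 to 32468 with genipin in kidney, and to 10603 to 10770 and 10786 to 11544 in liver. In kidney 4 of them rose and 1 fell, and in liver 3 rose, Kdr the most, and 4 fell, with a liver median of -0.11. The 4 of 7 sinusoidal endothelial markers tested summed to 14163 to 16135 and 18678 to 19565 in liver, with none at the floor there, and 2 of them rose and none fell. Kdr and Tek are themselves among the vascular markers. The part of these markers in the result was not tested.

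**Figure D4:**
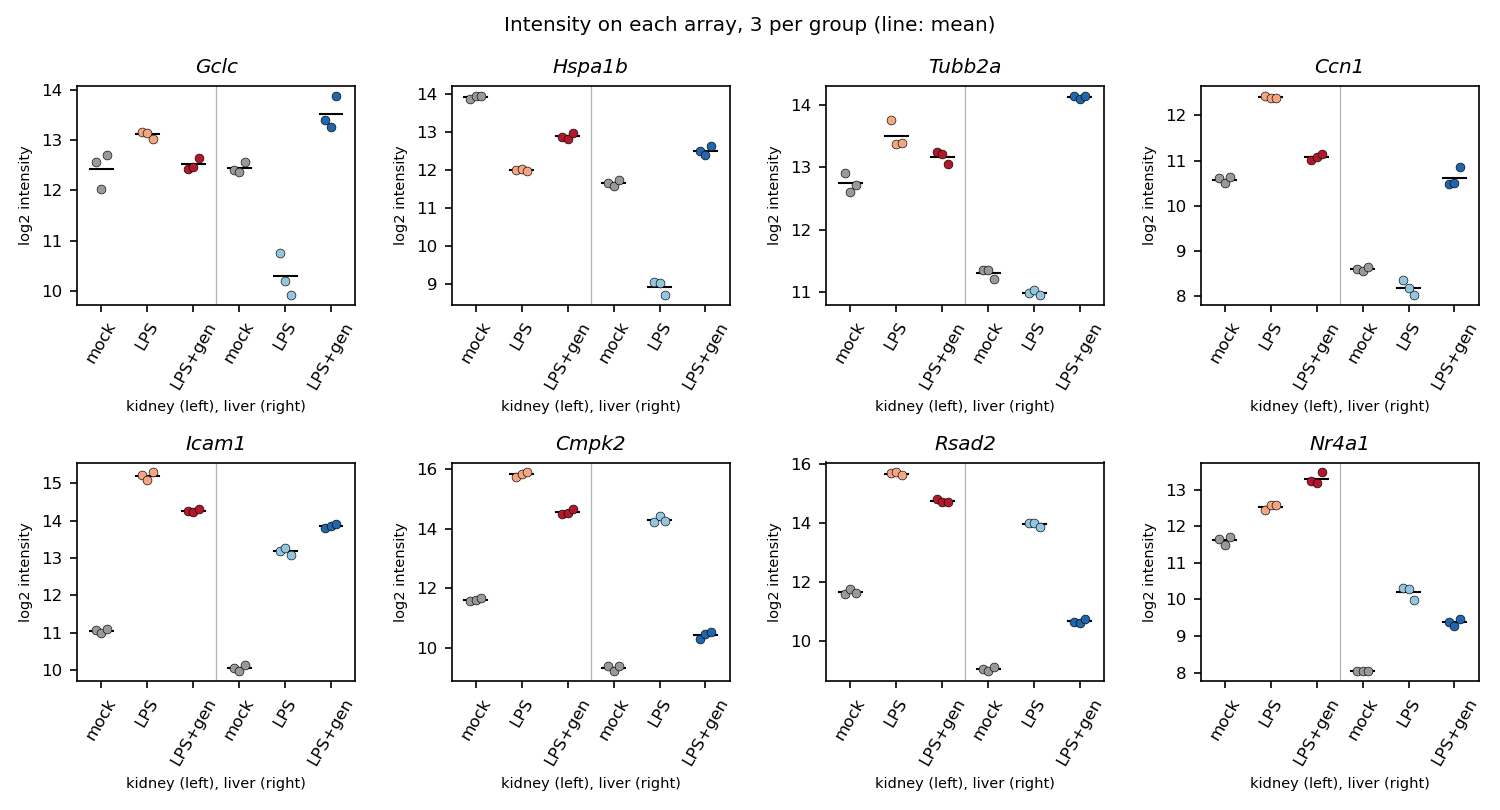
Log2 intensity of 8 genes on each array, 3 per group, with the group mean as a line; kidney groups are on the left and liver groups on the right of each panel, in the order mock, LPS, LPS plus genipin. Levels are comparable only within a tissue. In liver, Gclc reads 9.93 to 10.75 on the LPS arrays and 13.27 to 13.88 with genipin. In kidney Gclc falls, and Cmpk2 falls in both tissues.

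Lipid synthesis showed the opposite balance. Of 29 genes of lipid synthesis and lipoproteins, 3 had a larger effect in liver and 13 a smaller one (55.2%, against 38.2% of all genes), with a median difference of -0.20. In kidney 16 rose and 3 fell, and in liver 6 rose and 11 fell. Of the 29, 6 were at a limit. Lss, lanosterol synthase of the cholesterol pathway, read 9.09, 8.97 and 8.89 in kidney with LPS and 9.45, 9.66 and 9.96 with genipin. In liver it read 10.20, 10.39 and 9.94, then 9.33, 9.64 and 9.62. It rose by 0.70 in kidney and fell by 0.65 in liver, without overlap, for a difference of -1.35 ± 0.18 (adjusted p = 2.4e-05). Fdps, which makes farnesyl diphosphate in that pathway, differed by -1.20 (liver -0.33, kidney 0.88).

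Other members with large differences belong to several processes. Slc40a1, the iron exporter ferroportin, read 12.23, 12.46 and 12.17 in liver with LPS and 14.97, 14.98 and 14.99 with genipin, against 15.41, 15.37 and 15.44 in mock. Its kidney effect of 0.11 missed the test, and the difference was 2.59. Foxq1, a forkhead transcription factor, rose by 3.18 in liver and 0.39 in kidney. Tnfrsf12a, a receptor of the tumour necrosis factor family, rose by 2.23 in liver and fell by 0.80 in kidney, and Rcan1, a regulator of calcineurin, rose by 2.35 and fell by 0.55. Arrdc3, an arrestin-domain protein, rose by 2.37 in liver, with a kidney effect of -0.04 that missed the test. LPS alone had lowered Arrdc3 by 4.66 in liver and raised it by 0.23 in kidney. Its liver mean with genipin, 10.55, stayed below the mock mean of 12.84. Of its LPS liver arrays 1 lay at the floor, so the liver rise may be understated.

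On the other side, Slc6a6, the taurine transporter, fell by 1.75 in liver and rose by 0.34 in kidney (difference -2.08). Dpy19l1, a protein glycosyltransferase, read 12.81, 12.88 and 12.75 in liver with LPS and 11.50, 11.38 and 11.46 with genipin, and 9.95, 9.87 and 9.80, then 10.61, 10.50 and 10.81, in kidney. It fell in liver and rose in kidney without overlap (difference -2.14 ± 0.11, adjusted p = 6.21e-10). Chac1, which degrades glutathione, fell by 0.77 in liver and rose by 0.68 in kidney.

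Some large changes were shared by the organs. Gbp2, a guanylate-binding protein, fell by 2.22 in liver and 2.05 in kidney, and its difference of -0.17 missed the test. Its LPS kidney intensities of 58180, 49310 and 65490 lay near the scanner limit, so the kidney fall may be understated. Psmb9, an immunoproteasome subunit, fell by 1.78 and 2.00. Gdf10, a growth factor of the transforming growth factor family, rose by 1.39 and 1.25. Oxidative phosphorylation subunits, by contrast, changed little in either organ. In liver 8 of 46 passed the test (17.4%, against 60.2% of all genes), and in kidney 1 (2.17%, against 49.9%). They had a difference in 3 of 46 genes, 6.52% against the 38.2% of all genes, with 14 of the 46 at a limit.

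**Figure D5:**
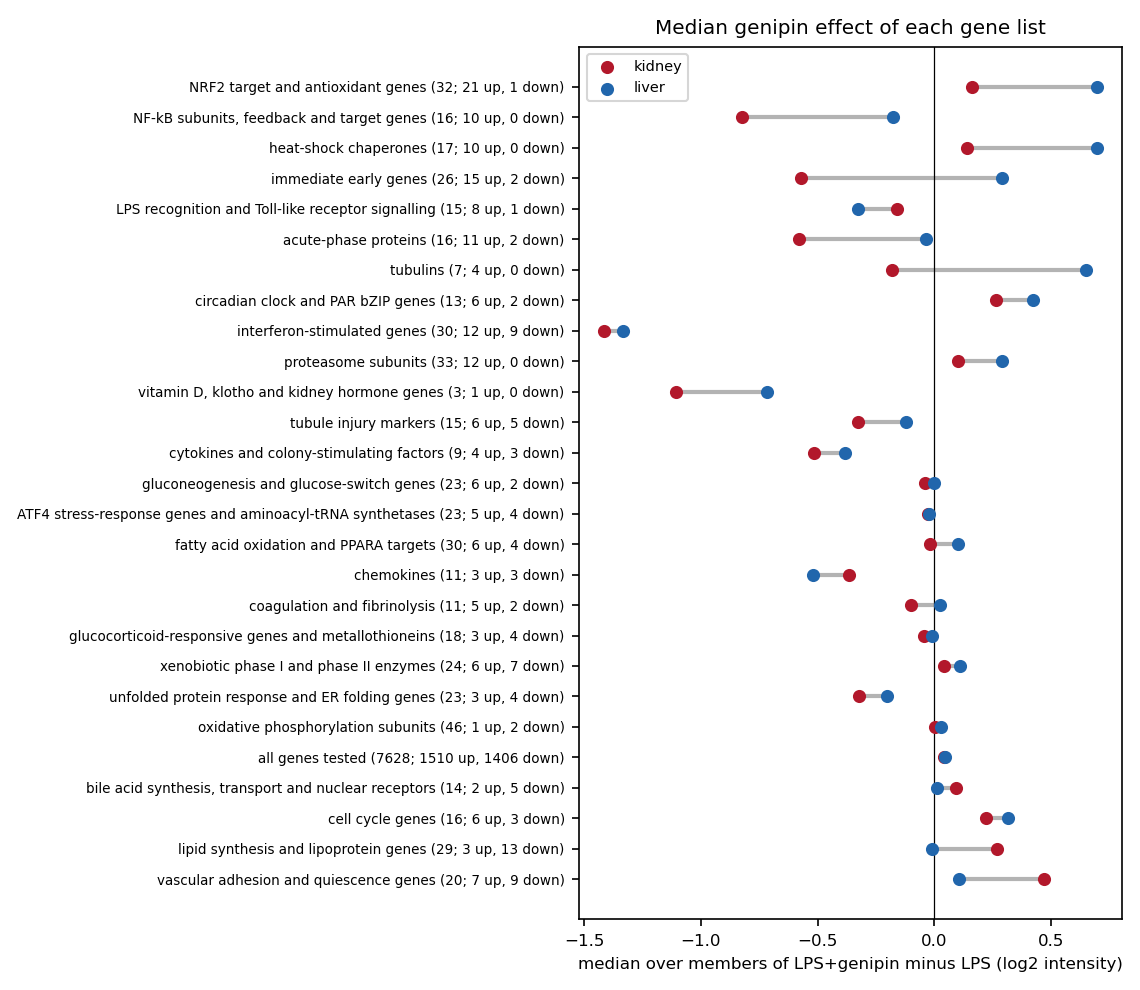
Median change from LPS to LPS plus genipin over the members of each gene list (log2 intensity) in kidney (red) and liver (blue), ordered by the median difference, with the number tested and the numbers with a larger (up) or smaller (down) effect in liver. NRF2 genes have medians of 0.69 in liver and 0.16 in kidney, and NF-kB genes -0.18 and -0.83.

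Transcripts typical of other tissues also moved. In kidney the hepatocyte markers tested, 7 of 14, summed to 59305 to 64565 with LPS and 68428 to 76380 with genipin, with Alb at 11.05, 10.84 and 10.79, then 12.58, 12.31 and 12.52; none was at the floor, 3 rose and none fell. The 2 of 7 skeletal muscle markers tested summed to 943 to 1049 and 3691 to 3881 in kidney, and both rose. Mylpf, a fast-muscle myosin light chain, rose there by 2.69 while all 3 LPS liver arrays lay at the floor, so no liver change is given. In liver the 3 of 6 podocyte markers tested summed to 6467 to 6667 with LPS, 2905 to 2909 with genipin and 2167 to 2319 in mock; 2 fell with genipin and Cdkn1c (0.05) missed the test. Their part in the other differences was not tested.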

How the data were processed

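Per the labels, each array was hybridised with Cy5-labelled total RNA; the authors' deposited values are intensities on a linear scale, normalized within each tissue. The submitters' processing notes name limma without a version; no source used here states the scanner, background correction or probe filter. Values under the 5th percentile of all intensities (263) were set to it, and log2 was taken. Probes were named through the platform annotation (14817 of 18183 carried 1 symbol), and each gene was represented by the probe brightest on average across the 36 arrays. Group means of the 18 kidney and liver arrays were fitted with limma 3.58.1 (R 4.3.3); moderated two-sided p-values were Benjamini-Hochberg adjusted over the 7628 genes, with 0.05 as threshold. The fit was tested on simulated data. The number of arrays limits the precision.

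Named genes were the 10 highest and 10 lowest differences, the 5 strongest opposite movements each way, the 4 strongest shared changes each way, the 2 largest called differences per gene list and the 3 largest at a limit; other members were named after their values were seen. Members, the 26 gene lists and the 18 marker lists were chosen with earlier results of these data known. T and natural killer cell and adrenal cortex markers had no gene tested. Alternatives were the floor, normalization, dim-gene filter, probe, variance model, arrays in the fit, replicate blocks and leaving out each array. Tables and figures were made in Python 3.11.15 with matplotlib 3.10.9, numpy 2.4.6 and pandas 2.3.3.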

Additional observations from a re-analysis of the deposited data

Results flagged for a closer look

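The 72 named genes whose liver-minus-kidney difference in the genipin effect passed the limma test (adjusted p under 0.05) are given here as log2 differences. In stress responses they were Gclc 3.82, Ugdh 2.28, Hspa1b 2.70, Dnajb1 1.35, Zfand2a 2.74, Tubb2a 3.46, Tuba1c 2.26, Psmd11 0.65, Psmb8 0.56, Chac1 -1.46, Herpud1 -1.06, Sec61b -1.02 and Shmt2 0.86. Among early-response and cell-cycle genes they were Ccn1 3.74, Klf6 2.40, Egr1 2.22, Nr4a1 -1.58, Tgif1 2.14, Plk2 1.77, Mdm2 0.97 and Cdkn1a 0.63. In inflammation they were Icam1 1.60, Relb 1.44, Ly96 1.25, Ticam2 0.98, Il1r1 -0.85, Serpina3g -1.20, Ccl9 -1.26, Cxcl10 -0.76, Il1b -1.21, Il33 -0.99 and Tnfrsf12a 3.03, with the interferon-induced Cmpk2 -2.60, Ifit3 -2.46, Rsad2 -2.36 and Isg15 -1.92.

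In metabolism, transport and rhythm the differences were Slc40a1 2.59, Slc6a6 -2.08, Slc51b -0.97, Akr1d1 -0.75, Cyp2b9 1.10, Cyp4b1 -0.97, Pdk4 1.34, Lpin1 -1.18, Arrdc3 2.41, Acot2 1.59, Plin2 1.42, Lss -1.35, Fdps -1.20, Nr1d2 1.07, Rora 1.00, Sdhb 0.43 and Ndufb2 -0.37. For vessels, coagulation, hormones and injury they were Kdr 2.15, F3 2.15, F5 0.70, Agt 0.98 and Vim -0.68. The other genes were Rcan1 2.91, Abtb2 2.81, Foxq1 2.78, Zfp287 2.52, Lrrc8e 2.51, Dpy19l1 -2.14, Cygb -2.13, Tnnc2 -1.94, Unc13b -1.94, Map4k3 -1.89 and Dbh -1.87. Fgb 3.11, Mylpf -2.67 and Nrsn1 2.57 rest on a tissue at the scanner limit or the floor, so these 3 differences are not folds.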

How the results depend on the processing

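Under 11 other settings the number of genes whose genipin effect differed ranged from 2307 (dim genes removed, which leaves fewer genes tested) to 3042, and leaving out 1 array at a time gave 2597 to 3011, against 2916. Counting only differences of at least 2-fold leaves 399. Of the 72 called named genes, 70 stayed called in the same direction under every alternative in which they were tested. Among these, Tnnc2, Dbh, Cyp2b9, Acot2, F3 and Mylpf were left out by the dim-gene filter and so were not tested under it. Ticam2 missed the test after joint quantile normalization (0.37, adjusted p = 0.322), and Shmt2 missed it in 6 settings (0.89, adjusted p = 0.407 without a floor). Nhlrc1, not called at -0.14, turned to 0.32 after joint quantile normalization (adjusted p = 0.0158) and was called at -0.30 with the floor at the 10th percentile. Its LPS liver arrays read 8.04, 8.04 and 8.04, at or next to the floor. The cause of these changes in the call was not tested. Ptprb was also called without LPS_Liver replicate 1 (-0.35), and Sting1 in 2 alternatives (-0.60 with the block by mouse and -0.85 without LPS_Genipin_Liver replicate 1). Other probes existed for 5 named genes, an alternative chosen after seeing the data, and all gave the same call and direction. With the replicate number as a block within tissue, 2658 genes were called (2604 shared), and with same-numbered arrays of a treatment taken as 1 mouse, 3042 (2756 shared). That second block cannot estimate an effect within 1 tissue, so none is given. Deviations of same-numbered kidney and liver arrays correlated at 0.483, 0.11 and 0.473 with LPS and at 0.208, 0.001 and 0.176 with genipin, so the numbers were not taken as a pairing. Among liver arrays of the same treatment only, 5 of 6 kidney arrays correlated best with the one of their own number. Arrays of different treatments, which are not 1 mouse, also correlated. LPS plus genipin kidney 1 and LPS liver 3 gave 0.273, and LPS liver 3 and LPS plus genipin liver 1 gave 0.592. With 3 arrays per group, genes at the floor or near saturation have only a bound.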

Other observations

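Of 13 circadian clock and PAR bZIP genes, 6 had a larger effect in liver and 2 a smaller one (61.5%, against 38.2% of all genes), with a median difference of 0.27 against 0.02 over all genes. Nr1d2, a clock repressor, rose by 0.91 in liver and Rora, a clock activator, by 1.07, while their kidney effects of -0.16 and 0.06 missed the test. Of 23 gluconeogenesis and glucose-switch genes, 6 had a larger and 2 a smaller effect in liver (34.8%, near the 38.2% of all genes), with 4 of the 23 at a limit. Agt, the precursor of angiotensin, fell by 0.72 in liver and 1.70 in kidney. Plin2, a lipid droplet protein, and Pdk4, a kinase that limits pyruvate oxidation, fell by 1.22 and 1.15 in kidney, and their liver effects of 0.20 and 0.19 missed the test.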
